A study of Rattus norvegicus with 8 samples.

Results

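The CYP2A and CYP2B enzymes of rat liver were described in male rats of the Fischer 344 strain, 4 treated with D3T and 4 with vehicle, each rat's liver being read on its own Affymetrix Rat Genome U34 array. Every non-control probe set whose annotated gene symbols include a CYP2A or CYP2B gene was taken, which gave 16 of 8740 probe sets and 8 of 5147 named genes. A probe set is the group of short probes that together read 1 transcript sequence. Of the 16, 11 carry 1 symbol (Cyp2a1, Cyp2a2, Cyp2a3, Cyp2b2, Cyp2b3, Cyp2b12 or Cyp2b15) and 5 carry a pair of symbols and are given apart. Cyp2b1 is named only together with Cyp2b2, so no value here belongs to Cyp2b1 alone. The D3T rats were gavaged on days 1, 3 and 5 with 3H-1,2-dithiole-3-thione at 0.3 mmol/kg, carried in a saturated sucrose solution. Control rats were given 0.2 ml of the sucrose solution alone, on the same days as far as the labels say, which name no days for vehicle replicate 2. All 8 rats are labelled with age 6, without a unit, and carry no genetic change in the labels. The time between the last dose and the taking of the liver is not given in the sources used here.

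CYP2A and CYP2B enzymes are membrane-bound cytochromes P450 that add oxygen to drugs, nicotine-like compounds and steroids. In rodent liver the classic drug-inducible pair is Cyp2b1 and Cyp2b2, whose transcription rises when the constitutive androstane receptor (CAR, encoded by Nr1i3) enters the nucleus, pairs with a retinoid X receptor and binds an enhancer far upstream of these genes. Cyp2b3 is a liver enzyme of the same subfamily known for not responding to phenobarbital, the standard CAR activator. Cyp2a1 and Cyp2a2 hydroxylate testosterone at different positions, and Cyp2a2 is typical of the adult male liver. Cyp2a3 is known from lung and nasal tissue, and Cyp2b12 and Cyp2b15 from sebaceous glands. In the RefSeq gene table of the assembly GRCr8, 11 protein-coding genes of both subfamilies lie in 1 cluster on chromosome 1, in the order Cyp2b1, Cyp2b2, Cyp2b3, Cyp2b21, Cyp2b14l1, Cyp2b12, Cyp2b14, Cyp2b15, Cyp2a3, Cyp2a1 and Cyp2a2.

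After D3T the transcripts measured as Cyp2b2 and as Cyp2a1 were higher, by 1.46-fold to 1.97-fold, whereas those measured as Cyp2a2, Cyp2b3, Cyp2a3 and Cyp2b15 did not pass the test. Of the 16 probe sets, 13 were bright enough to be tested and 3 were not. With limma and Benjamini-Hochberg adjustment over all 5244 probe sets tested, 6 of the 13 were higher at an adjusted p under 0.05, none was lower and 7 did not pass. Among all probe sets tested, 4.2% were higher, 6.48% lower and 10.7% changed in either direction. The 6 calls comprise 3 of the 8 tested probe sets with 1 symbol and 3 of the 5 with a pair of symbols. They name only 3 genes, and 5 of them name Cyp2b2, so they are not 6 separate measurements. The median log2 fold change was 0.11 over the 8 probe sets with 1 symbol and 0.67 over the 5 with a pair, beside 0.02 over all probe sets tested. In whole liver, fewer cells of a type and less RNA per cell cannot be told apart.

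**Figure D1:**
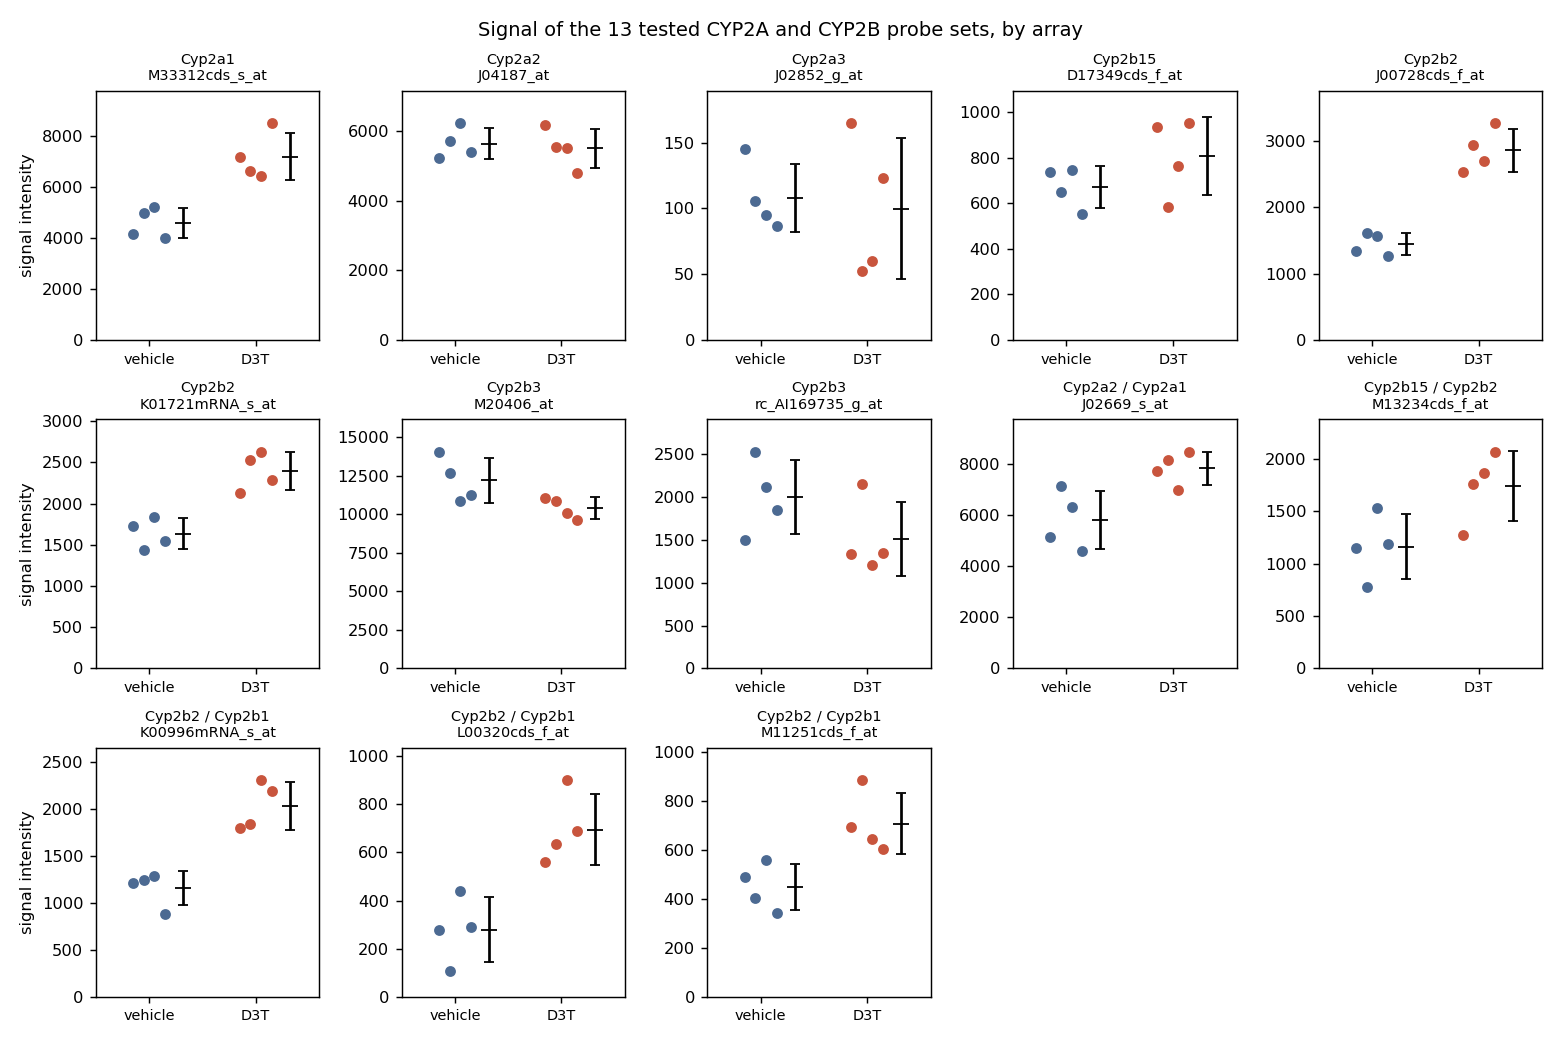
Signal intensity (y axis, linear, from 0) of the 13 tested CYP2A and CYP2B probe sets in 4 vehicle and 4 D3T arrays. Points are arrays in the order of their replicate numbers, and the bar beside them is the mean ± SD (n = 4). The D3T points lie wholly above the vehicle points in 6 panels, those of Cyp2a1, both Cyp2b2 probe sets and the 3 named for Cyp2b2 and Cyp2b1. Such a separation was found for 7.89% of all probe sets tested.

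A signal is the brightness that the MAS5 algorithm assigns to a probe set, on a linear scale with no fixed unit. Signals of different probe sets cannot be ranked against each other, so each is compared only between groups. Probe set names ending in _s_at or _f_at mark probes shared with similar sequences or with a gene family. Of the 13 tested probe sets, 9 carry such a mark and include all 6 that were higher. None of the 4 without the mark passed. Over all probe sets tested, 7.04% with the mark and 3.47% without it were higher. For each marked probe set the signal may therefore come from related genes as well as from the gene it is named for.

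The promoters of the genes on which the results turn are shown because Cyp2b1 and Cyp2b2, which 3 probe sets name together, also have nearly the same sequence before their starts, while their neighbour Cyp2b3 is less alike. Each line gives the 250 bases before the gene's annotated start in RefSeq (GRCr8). Capitals mark matches to TTGCNNAA, a pattern of C/EBP binding sites, and to the TATA-type patterns TATAAA and CATAAAA.
Cyp2b1, chr1:90645869-90646118, plus strand: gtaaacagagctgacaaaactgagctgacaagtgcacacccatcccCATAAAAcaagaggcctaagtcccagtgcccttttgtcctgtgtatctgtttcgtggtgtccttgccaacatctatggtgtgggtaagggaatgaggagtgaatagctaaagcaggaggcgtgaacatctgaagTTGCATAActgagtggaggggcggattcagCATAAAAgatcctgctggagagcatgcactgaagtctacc
Cyp2b2, chr1:90722031-90722280, plus strand: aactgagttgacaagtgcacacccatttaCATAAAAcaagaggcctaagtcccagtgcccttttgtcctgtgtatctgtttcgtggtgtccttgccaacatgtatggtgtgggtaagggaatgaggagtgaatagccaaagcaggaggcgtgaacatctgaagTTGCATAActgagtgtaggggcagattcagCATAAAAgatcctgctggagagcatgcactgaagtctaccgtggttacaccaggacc
Cyp2b3, chr1:90780242-90780491, plus strand: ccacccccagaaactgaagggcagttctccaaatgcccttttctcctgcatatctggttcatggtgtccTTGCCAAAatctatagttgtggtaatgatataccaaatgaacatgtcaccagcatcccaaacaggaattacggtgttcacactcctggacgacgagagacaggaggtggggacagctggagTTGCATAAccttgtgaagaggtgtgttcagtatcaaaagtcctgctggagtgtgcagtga
Cyp2a1, chr1:91359028-91359277, plus strand: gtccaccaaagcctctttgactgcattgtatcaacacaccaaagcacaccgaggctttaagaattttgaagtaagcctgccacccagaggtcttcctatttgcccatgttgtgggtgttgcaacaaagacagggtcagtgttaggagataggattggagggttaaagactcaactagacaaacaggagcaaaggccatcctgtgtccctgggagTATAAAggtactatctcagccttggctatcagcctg

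Over 233 aligned bases Cyp2b1 and Cyp2b2 differed at 8 (96.6% identity), whereas Cyp2b3 was 72.1% identical to Cyp2b2 over 201 aligned bases, with 51 bases in gaps. Each motif was searched on both strands, and CATAAAA was chosen after these sequences were seen. TTGCNNAA begins 70 bases before the start of Cyp2b1, 87 before that of Cyp2b2 and both 181 and 60 before that of Cyp2b3, and it has no match in the window of Cyp2a1. Among 33469 promoters of the same length, 9.22% hold it. CATAAAA occurs at 2 places in the windows of Cyp2b1 and Cyp2b2 and in 4.16% of all promoters, and TATAAA occurs in that of Cyp2a1 and in 12.9% of all. The pattern TGACNNNGC, the core of the antioxidant response element bound by the protein of Nfe2l2, and AGGTCA, a nuclear receptor half-site, are in none of these 4 windows and in 10.1% and 14.1% of all promoters. These windows end far short of the known CAR enhancer, and a match or its lack is a description of letters only. Of the other members with a RefSeq entry, Cyp2b15 and Cyp2b12 hold AGGTCA, 167 and 121 bases before their starts, and Cyp2b15, Cyp2b12 and Cyp2a3 hold TTGCNNAA. Cyp2a3 also holds TATAAA. Cyp2a2 was not matched.

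Cyp2b2, the inducible enzyme, was measured by 2 probe sets of its own symbol. The signal of the first, J00728cds_f_at, was 1349, 1610, 1564 and 1273 in vehicle replicates 1 to 4 and 2530, 2936, 2705 and 3268 in D3T replicates 1 to 4. Every D3T array thus lay above every vehicle array, a separation found for 7.89% of all probe sets tested. The means were 1449 ± 163.5 (SD, n = 4) and 2860 ± 319, a log2 fold change of 0.98 ± 0.13 (SE), or 1.97-fold with a 95% interval of 1.63 to 2.40 (limma adjusted p = 0.00148). The second, K01721mRNA_s_at, read 1730, 1432, 1838 and 1546 in vehicle and 2123, 2533, 2627 and 2286 after D3T. These groups did not overlap either, and the rise was smaller, at 1.46-fold (95% interval 1.21 to 1.77, adjusted p = 0.0205). The call of the first probe set held whichever array was left out, with adjusted p up to 0.00674. That of the second was lost without vehicle replicate 4 (adjusted p = 0.0559) and in a fit with no intensity trend (0.0565).

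The 3 probe sets named for both Cyp2b2 and Cyp2b1 were all higher after D3T. K00996mRNA_s_at had signals of 1217, 1239, 1283 and 886 in vehicle and 1797, 1837, 2305 and 2190 after D3T, and was 1.77-fold higher (95% interval 1.40 to 2.22, limma adjusted p = 0.0088). Vehicle replicate 4 was lowest and stood apart from the other vehicle arrays. This call held without any 1 array. L00320cds_f_at had the largest change of the family, 2.75-fold with a wide interval of 1.59 to 4.76 (adjusted p = 0.0296). Its signals were 277.6, 108.1, 438.3 and 290.8 in vehicle and 559, 632.8, 899.2 and 687.3 after D3T. Vehicle replicate 2 was lowest, and without it the log2 fold change was 1.06 rather than 1.46. The call was lost without vehicle replicate 1 or 4 or without D3T replicate 1, 3 or 4 (adjusted p up to 0.0675), with no filter on low signals (0.114) and with no intensity trend (0.0607). M11251cds_f_at read 489.6, 405.1, 561.3 and 342.7 in vehicle and 696.9, 885.9, 647.4 and 604.4 after D3T. Its groups lay close together without overlapping. It rose 1.59-fold, from 449.7 ± 95.8 (SD, n = 4) to 708.6 ± 124.1, close to the threshold (adjusted p = 0.0471). Its call was lost whichever array was left out (adjusted p up to 0.112), and it passed under only 5 of the 18 alternatives tried.

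Cyp2b15, known from sebaceous glands, shares a further probe set with Cyp2b2. That probe set, M13234cds_f_at, had signals of 1151, 776.7, 1536 and 1192 in vehicle and 1278, 1767, 1864 and 2070 after D3T. The groups overlapped, since D3T replicate 1 lay below vehicle replicate 3, and the 1.52-fold difference did not pass (95% interval 1.10 to 2.10, adjusted p = 0.0929). The probe set named for Cyp2b15 alone, D17349cds_f_at, read 737.3, 651.2, 748.5 and 552.7 in vehicle and 935.8, 584.7, 764.4 and 951.9 after D3T. Here 3 of 4 D3T arrays were above every vehicle array and D3T replicate 2 lay within the vehicle range (log2 fold change 0.25 ± 0.18 SE, adjusted p = 0.373). Of the 6 probe sets that name Cyp2b2, alone or in a pair, 5 were higher.

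Cyp2b3, the subfamily member that phenobarbital does not induce, was measured by M20406_at at 14054, 12653, 10846 and 11235 in vehicle and 11089, 10855, 10072 and 9601 after D3T. The groups overlapped at their edges. The means were 12197 ± 1461 (SD, n = 4) and 10404 ± 689.9, a log2 fold change of -0.22 with a 95% interval of -0.47 to 0.02, which did not pass (adjusted p = 0.213). The second probe set, rc_AI169735_g_at, read 1504, 2528, 2122 and 1853 in vehicle and 1336, 2152, 1205 and 1348 after D3T. It had means of 2002 ± 432.3 and 1510 ± 432.6 and the same sign (-0.42, interval -0.88 to 0.04, adjusted p = 0.205). Here 3 of the 4 D3T arrays lay below every vehicle array, and D3T replicate 2 did not. Neither interval allowed a rise like that of Cyp2b2, and both allowed a fall, down to -0.47 and -0.88 on the log2 scale. The third, rc_AI169735_at, was too dim to be tested, with signals from 7.09 to 22.8 in vehicle and from 7.98 to 12.9 after D3T.

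In the CYP2A subfamily Cyp2a1 was higher and Cyp2a2 did not pass. Cyp2a1, a testosterone hydroxylase, had signals of 4168, 4970, 5223 and 3997 in vehicle and 7207, 6630, 6455 and 8511 after D3T (M33312cds_s_at). No D3T array overlapped the vehicle arrays. The means were 4589 ± 598.7 (SD, n = 4) and 7201 ± 930.7, a log2 fold change of 0.65 ± 0.13 (SE), or 1.57-fold with a 95% interval of 1.29 to 1.92 (limma adjusted p = 0.0132). The call held whichever array was left out (adjusted p up to 0.0451). Cyp2a2, the male-typical enzyme, read 5227, 5723, 6228 and 5403 in vehicle and 6175, 5563, 5513 and 4813 after D3T (J04187_at). Its groups lay over each other, with a log2 fold change of -0.04 and a narrow interval of -0.28 to 0.21 (adjusted p = 0.850). The sign was turned without vehicle replicate 3 (0.01) or D3T replicate 4 (0.03). The probe set named for both, J02669_s_at, read 5153, 7120, 6316 and 4602 in vehicle and 7720, 8126, 6970 and 8462 after D3T. It stood 1.36-fold higher without passing (95% interval 1.09 to 1.70, adjusted p = 0.0698), and vehicle replicate 2 lay above the lowest D3T array. Without that array it passed (adjusted p = 0.0261).

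Cyp2a3 and Cyp2b12 each had a probe set too dim to be tested. Cyp2a3, the enzyme of lung and nose, was tested through J02852_g_at, with signals of 144.7, 105.6, 94.8 and 86.7 in vehicle and 164.6, 52, 59.9 and 122.8 after D3T. The D3T arrays spread to both sides of the vehicle arrays, and the log2 fold change of -0.25 had a wide interval of -1.13 to 0.63 (adjusted p = 0.697). It was 0.01 without D3T replicate 2. The other Cyp2a3 probe set, J02852_at, lay below the floor of 20.4 on all 8 arrays and was not tested. Cyp2b12 (X63545_at) was also not tested, with all 4 vehicle arrays below the floor, between 12.8 and 19.9. Its D3T signals were 20.8, 143.5, 9.98 and 30.2, of which 3 lay above every vehicle array and D3T replicate 2 stood far above the rest. When it was fitted with no filter on low signals, Cyp2b12 did not pass (adjusted p = 0.504).

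**Figure D2:**
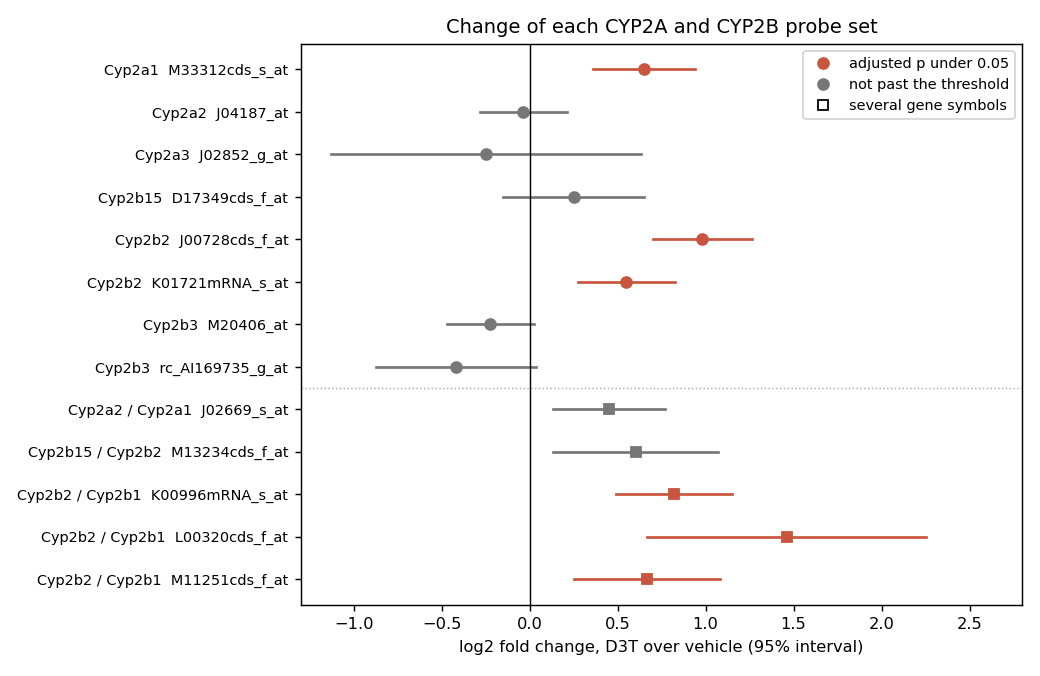
Log2 fold change of D3T over vehicle (x axis) for the 13 tested probe sets, with 95% intervals from the limma fit, circles for 1 gene symbol and squares for a pair. The 6 red intervals, past an adjusted p of 0.05, lie to the right of 0, from Cyp2b2 at 0.55 to the pair Cyp2b2 and Cyp2b1 at 1.46, while both Cyp2b3 probe sets lie left of 0 without passing.

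Whether members changed by different amounts was asked within each array, from the difference of log2 signals between the brightest probe sets of the 6 tested genes. All 15 pairs were compared by exact two-sided permutation tests over 70 assignments, in which no p can be below 0.0286. Of the 15 pairs, 7 reached that smallest p and none had an adjusted p under 0.05, the lowest being 0.0612. With 15 pairs none could pass unless at least 9 shared the smallest p. The lack of a passing pair therefore does not show that members changed alike. The ratio of Cyp2b2 to Cyp2b3 lay between 0.0960 and 0.144 in vehicle arrays and between 0.228 and 0.340 in D3T arrays, a change 2.31-fold larger for Cyp2b2 (exact p = 0.0286, adjusted p = 0.0612). These ranges do not overlap, and all 4 D3T arrays moved the same way. The ratio of Cyp2a1 to Cyp2a2 ranged from 0.740 to 0.868 in vehicle and from 1.17 to 1.77 after D3T, with D3T replicate 4 highest (exact p = 0.0286, adjusted p = 0.0612). Cyp2a2 against Cyp2b2 also separated the groups, with a difference of -1.02 on the log2 scale. Between the risers, the change of Cyp2a1 was smaller than that of Cyp2b2 by 0.33 on the log2 scale, with no overlap of the ratios and the same p. That order rests on the Cyp2b2 probe set used, since the other rose by 0.55, less than the 0.65 of Cyp2a1. The sizes of all differences from Cyp2b2, that from Cyp2b3 included, rest on the same choice. The probe set used, J00728cds_f_at, rose by 0.98 and was the brighter only after D3T (mean 2860 against 2393). In vehicle K01721mRNA_s_at was brighter (1636 against 1449), so the choice by brightness favoured the larger rise. Pairs with K01721mRNA_s_at were not tested. Cyp2a2 and Cyp2b3 differed by 0.19 with overlapping ratios (exact p = 0.229, adjusted p = 0.286). With D3T replicate 1 left out, the adjusted p was under 0.05 for 9 pairs, Cyp2b2 with Cyp2b3 and Cyp2a1 with Cyp2a2 among them (both 0.0476). All 9 had the smallest p, and it was their number that let them pass. Without any other single array no pair passed.

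**Figure D3:**
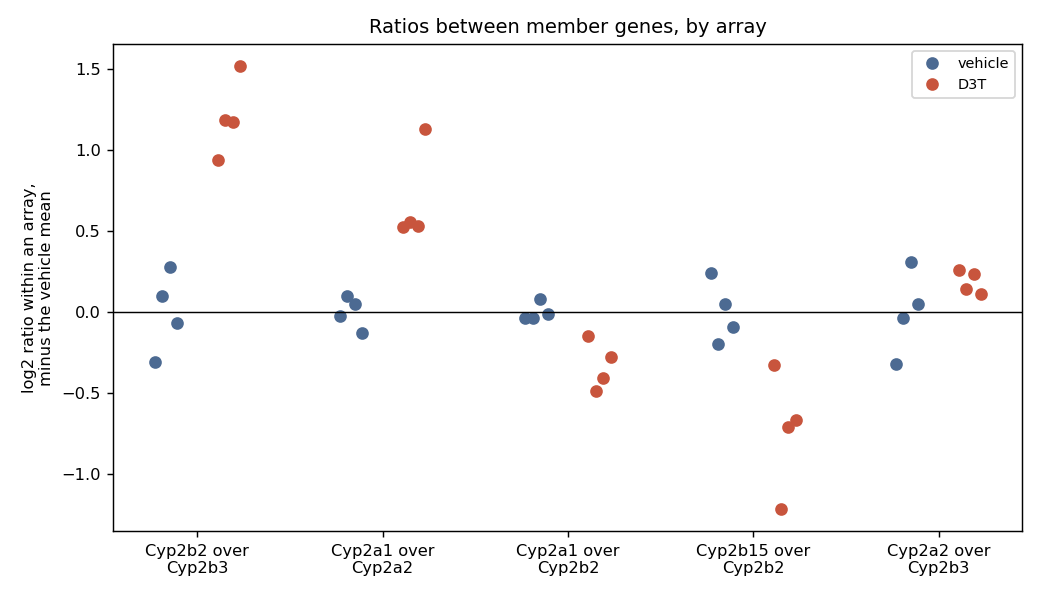
Log2 ratio of 2 member genes within each array, minus the mean of the vehicle arrays (y axis), for 5 of the 15 pairs (x axis). Each point is 1 array. The D3T points leave the vehicle range for the first 4 pairs and overlap it for Cyp2a2 over Cyp2b3.

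Several array-wide measures bear on these changes. The arrays had 2% trimmed means from 500.8 to 501 as deposited, log2 signals correlated at 0.930 to 0.968 between arrays (over probe sets, which are not independent), and no 2 arrays shared more than 31 identical values. The actin 3'/5' ratio, which rises as RNA is broken or copied incompletely, ran from 1.45 to 1.59 in vehicle and from 1.17 to 1.47 after D3T (exact two-sided permutation p = 0.0571). It moves with the groups, and its part in the members' changes was not tested beyond a fit that adjusts for it. In that fit 0 of the 13 members passed with limma, as against 35 of 5244 probe sets. The calls of both Cyp2b2 probe sets were lost (limma adjusted p = 0.122 and 0.208), as was that of Cyp2a1 (0.407). For J00728cds_f_at the log2 fold change was 0.75 ± 0.18 (SE), against 0.98 ± 0.13 unadjusted. K01721mRNA_s_at stood at 0.62 ± 0.20 against 0.55 ± 0.12, and Cyp2a1 at 0.31 ± 0.16 against 0.65 ± 0.13. The pair probe sets K00996mRNA_s_at, L00320cds_f_at and M11251cds_f_at stood at 0.74, 1.49 and 0.63, against 0.82, 1.46 and 0.67.

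**Figure D4:**
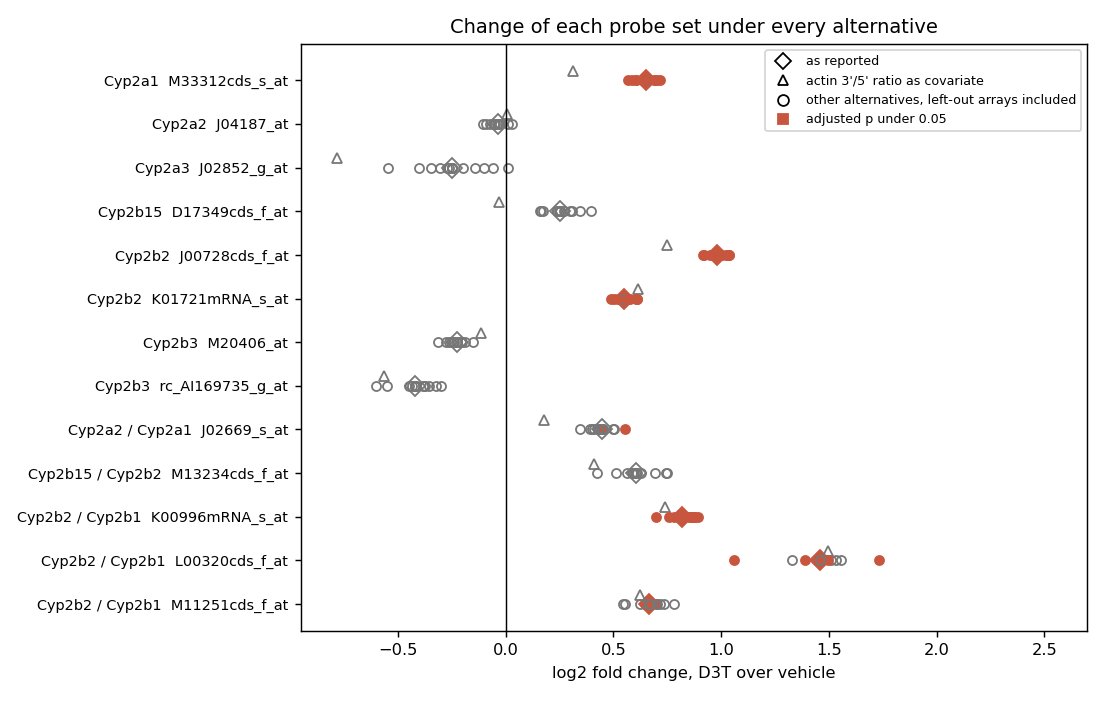
Log2 fold change of each tested probe set (x axis) as reported (diamond), adjusted for the actin 3'/5' ratio (triangle) and under the other alternatives (circles), filled red where the adjusted p was under 0.05. The values of Cyp2b2 (J00728cds_f_at) stay between 0.75 and 1.04, those of Cyp2a1 between 0.31 and 0.72, and those of both Cyp2b3 probe sets below 0.

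The label liver was borne out by bright hepatocyte genes, of which 7 of 8 were measured and 0 were higher and 1, Fgb, lower. None of the 7 periportal genes passed with limma, while 2 of 6 tested pericentral genes (of 7), Oat and Cyp1a2, were lower. Without passing, Cyp2e1, Cyp7a1 and Slc1a2 had log2 fold changes of 0.28, 0.07 and 0.54, and Glul of -0.47. The summed signals of the pericentral genes overlapped, at 31845 to 39422 in vehicle and 33544 to 36368 after D3T. Pericentral cells are where CYP2B enzymes are usually most abundant. The summed signals of the hepatocyte genes and of the periportal genes also overlapped between groups. Those of the 4 tested of 8 Kupffer cell genes did not, at 4286 to 4553 in vehicle and 3046 to 3916 after D3T, with C1qb lower and Cd14 higher. Lyz2 and Clec4f, at log2 fold changes of -0.74 and -0.48, did not pass. Lyve1 of the endothelial list (lost without any 1 array but D3T replicate 3), Col3a1 of the stellate list (kept only without vehicle replicate 2 or D3T replicate 2) and Cd74 of the leucocyte list were lower. The other leucocyte genes tested, Ptprc and Cd4, had log2 fold changes of 0.64 and 0.44 without passing, so that the list median was 0.44 while its sum was lower. The sums of 4 of 7 endothelial genes (1300 to 1603 against 1129 to 1213), 3 of 7 leucocyte genes (1394 to 2390 against 834.4 to 1250) and 2 of 4 erythroid genes (10707 to 15142 against 7124 to 9940) were also lower after D3T without overlap. Such a sum mostly follows its brightest probe set. Of all single probe sets tested, 11.3% had every D3T array below every vehicle array, and 6.48% passed as lower. In vehicle the erythroid mean was 12134 for Hbb, which did not pass (limma adjusted p = 0.0600), and 505.7 for Alas2. The brightest endothelial gene was Icam1, whose own groups overlapped. Those of 3 of 6 stellate and 2 of 5 cholangiocyte genes overlapped. None of these genes lay at the floor on all arrays, and their part in the members' changes was not tested.

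Genes around CAR were taken from 3 lists of its regulators, of P450 partners and heme synthesis, and of other genes known to respond to it. Neither Nr1i3, which encodes CAR, nor the pregnane X receptor gene Nr1i2 was matched to a probe set with 1 symbol. Of 11 regulators tested, 3 were higher, 2 lower and 6 did not pass, beside 4.2% higher and 6.48% lower among all probe sets tested. The median of their log2 fold changes was 0.27. Rxra, the partner of CAR on DNA, was 5.55-fold higher, from 121.7 ± 76 (SD, n = 4) to 578.6 ± 126.1 (limma adjusted p = 0.00725), and lost its call with no filter (0.0528). Its relative Rxrb was 1.55-fold higher (adjusted p = 0.0343), a call kept only without vehicle replicate 2 among the fits that leave out 1 array. Hnf4a, a factor of hepatocyte identity, was 1.41-fold higher (adjusted p = 0.0477), and its call was lost whichever array was left out. Egfr, whose signalling is known to hold CAR in the cytoplasm, was 1.85-fold lower (adjusted p = 0.00513), and the C/EBP factor gene Cebpb fell by 0.59 on the log2 scale (adjusted p = 0.0186, lost without vehicle replicate 1 or D3T replicate 1 and, at 0.0518, with no intensity trend). The groups did not overlap for any of these 5 genes. Over all probe sets tested, every D3T array lay above every vehicle array for 7.89% and below for 11.3%. With the actin ratio adjusted for, none of the 5 passed (limma adjusted p from 0.130 to 0.556).

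Of 9 genes for partner proteins and heme, only Cyb5a passed, beside 10.7% of all probe sets tested, and the list median was -0.26. Cyb5a, the cytochrome that passes electrons to P450 enzymes, was 1.59-fold higher, from 5073 ± 837.6 to 8043 ± 1120 (limma adjusted p = 0.0174, lost without vehicle replicate 1). The Cyb5a call was also lost with no filter (0.0599), no intensity trend (0.0532), the replicate block (0.0608) and the actin ratio (0.199). Por, the reductase on which every member depends, had signals of 1885 ± 257.2 and 1508 ± 267.7 and did not pass (log2 fold change -0.33, adjusted p = 0.183). Alas1, the first enzyme of heme synthesis and a known CAR target, did not pass either (-0.26, adjusted p = 0.408).

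Among the other genes known to respond to CAR, 6 of 17 tested were higher and 3 lower, and the median of the log2 fold changes was 0.32. The shares over all probe sets tested were 4.2% higher and 6.48% lower. The 6 were Gsta3, Aldh1a1, Ephx1, Gsta1, Gstm1 and Ugt2b1, of which Ephx1 and Gsta3 also stand in the list of 8 genes known to respond to Nfe2l2, 6 of which were higher and none lower. Ugt2b1, a glucuronosyltransferase, was 2.02-fold higher (844 ± 72.1 against 1758 ± 508, limma adjusted p = 0.0120), and Gstm1, a mu-class glutathione transferase, 2.29-fold (adjusted p = 0.000349). The 3 lower genes were the P450 gene Cyp3a2 at 3.28-fold, the sulfotransferase gene Sult2a1 at 2.59-fold and the export pump gene Abcc2 at 1.91-fold. Other P450 genes of the list did not pass, with log2 fold changes of -0.14 for Cyp2c6v1, 0.32 for Cyp2c7 and -0.28 for Cyp3a23-3a1. None of the 6 higher genes is a P450 gene. With the actin ratio adjusted for, Gsta3, Aldh1a1, Ephx1, Gsta1 and Gstm1 still passed (limma adjusted p up to 0.0410), whereas Ugt2b1, Cyp3a2, Sult2a1 and Abcc2 did not (0.0667 to 0.335). With no filter Ugt2b1 (0.0565) and Sult2a1 (0.0673) did not pass.

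**Figure D5:**
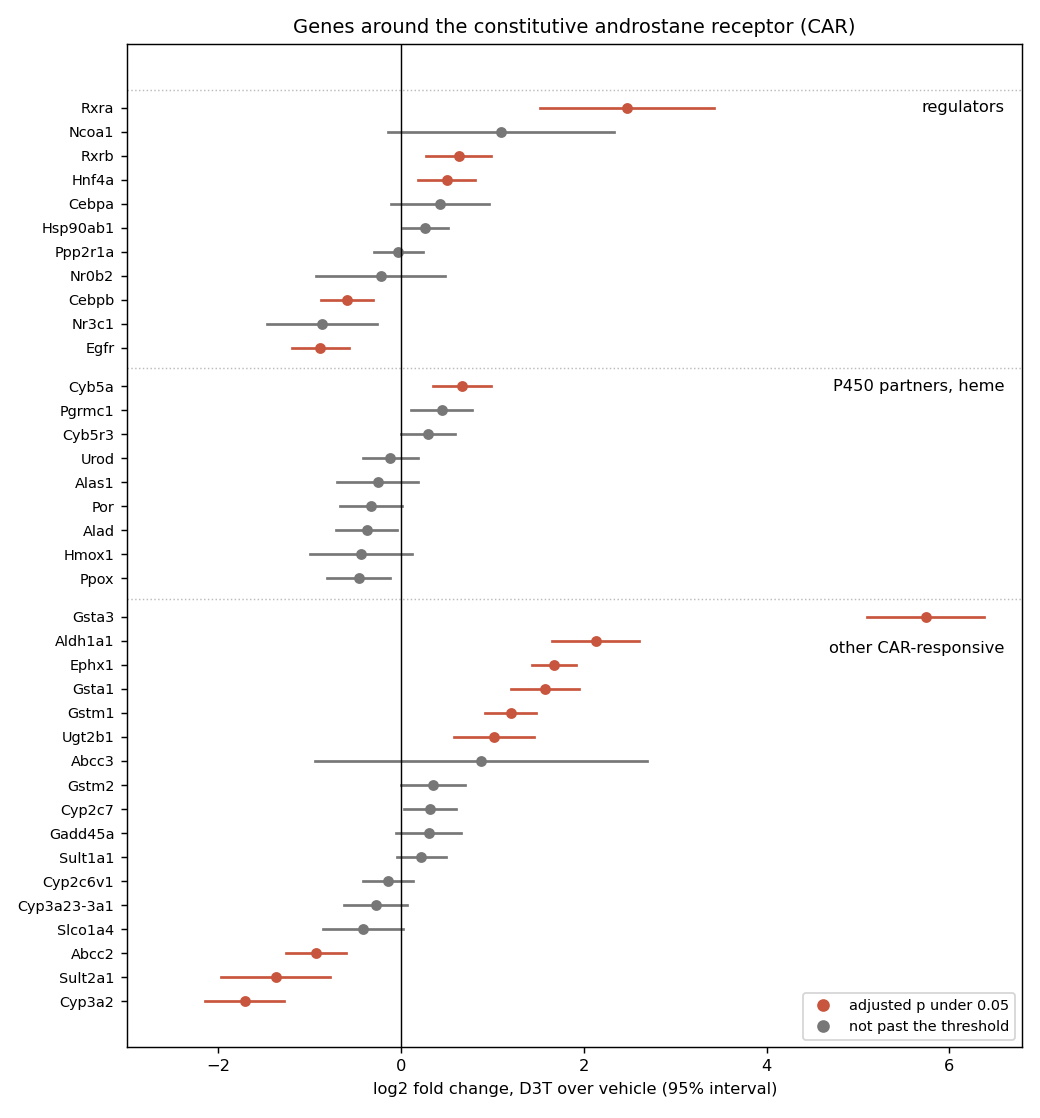
Log2 fold change of D3T over vehicle (x axis) with 95% intervals for 11 regulators, 9 P450 partner and heme genes and 17 other genes known to respond to the constitutive androstane receptor (CAR). Red marks an adjusted p under 0.05. In the last list 6 red points lie right of 0, up to Gsta3 at 5.74, and 3 lie left of it, down to Cyp3a2 at -1.71.

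Since Cyp2a1 and Cyp2a2 differ between the sexes in rats, genes with a known sex bias in liver were set beside them. Of 8 female-typical genes Cyp2a1 alone was higher, and Cyp3a9, Sult2a1 and Sult2a2 were lower, by 2.01-fold, 2.59-fold and 2.03-fold (limma adjusted p = 0.00782, 0.0120 and 0.0276). Sult2a2 lost its call without vehicle replicate 1 or 4 or D3T replicate 1 or 3, with no filter (0.0924), with no intensity trend (0.0565) and with the actin ratio (0.252). Cyp3a9 (0.135) and Sult2a1 (0.125) also lost theirs with the actin ratio. The largest fall of the female-typical list was that of Cyp2c12, which did not pass (log2 fold change -1.46, limma adjusted p = 0.0564). Its signals were low, at 179.3 ± 17.6 (SD, n = 4) and 75.4 ± 41.7, and did not overlap between groups. Of 8 male-typical genes Cyp3a2 was lower and 7 did not pass. Beside the counts of both lists, 4.2% of all probe sets tested were higher and 6.48% lower. Cyp2c11, the main male-specific P450, had signals of 18067 ± 2874 (SD, n = 4) and 18079 ± 2385, with a log2 fold change near 0 (adjusted p = 0.984). The list medians were -0.57 and 0.00.

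By Pearson correlation of log2 signals over the 8 arrays, the tested genes with patterns most like that of Cyp2a1 (M33312cds_s_at) were Akr1a1 (r = 0.977), Mfn2 (0.974) and Alcam (0.974). For Cyp2b3 (M20406_at) they were Nr3c1 (0.946), Pcyt2 (0.928) and Pdgfra (0.915). These values describe likeness only, since each pattern includes the difference between the groups and the genes were picked as the highest of all tested.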

How the data were processed

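Liver RNA of 8 rats was hybridised to 1 array each. The deposited values are linear signal intensities, made with MAS5 per the submitters' processing notes, with settings not stated there. Signals were scaled so that the 2% trimmed mean of every array was 500, values under the 20th percentile (20.4) were set to it as a floor, and log2 values were fitted. Of 8799 probe sets, 59 controls were left out, and the 60% with the highest mean over all arrays were tested with limma 3.58.1 in R 4.3.3 (lmFit, eBayes with an intensity trend). Fold changes are ratios of geometric means. Precision is limited by the number of arrays.

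Symbols came from the platform's annotation. A gene outside the family is represented by its brightest tested probe set with 1 symbol. List genes are named if they passed, as are Por and, if measured, the receptors. Some other list genes that did not pass, such as Alas1 and Cyp2c11, are also named, by no fixed rule. Other tested probe sets of Alas1, Cyp2c6v1 and Cyp2c11 had the opposite sign. Nearest patterns are the 3 highest correlations. The members, lists, tests and alternatives were chosen with earlier results of these data known. Replicate numbers did not pair the arrays: deviations from group means correlated at 0.06, -0.09, 0.01 and -0.20. Scripts were tested on simulated data. Alternatives were median centring, quantile normalization, a pseudocount of 16 before log2 in place of the floor, a floor raised to the 40th percentile, testing all probe sets or the brightest 30%, no trend, robust variance, a replicate block, the actin ratio and each array left out.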

Additional observations from a re-analysis of the deposited data

Results flagged for a closer look

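Among 32 groups of 4 arrays checked for a value standing apart, 3 had one, where chance alone gives about 1 in 20. For the probe set K00996mRNA_s_at, named for Cyp2b2 and Cyp2b1, vehicle replicate 4 lay below the other vehicle arrays at a signal of 886. For rc_AI169735_at of Cyp2b3, vehicle replicate 3 lay just above the floor at 22.8 and the other 3 vehicle arrays below it. Those 3 were set to the same floor value, so this flag follows from the floor, and the chance rate does not hold for it. The GAPDH 3'/5' ratio of D3T replicate 3 was 2.00, above the other D3T arrays, which lay between 1.43 and 1.47.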

How the results depend on the processing

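Of 13 tested members, 6 passed as reported. The count was 3 with no intensity trend, 3 with the replicate block and 0 with the actin ratio as a covariate, and from 3 to 6 without 1 array. Of all probe sets 560 passed, against 309 with no filter, 333 with no trend, 290 with the block, 35 with the actin ratio, and from 240 to 695 without 1 array. No pair of genes passed in the main comparison, where fewer than 9 pairs at the smallest p cannot pass. From 0 to 9 pairs passed without 1 array. With the block, where pairs cannot reach a p under 0.125, J00728cds_f_at, K00996mRNA_s_at and L00320cds_f_at kept their calls, and Cyp2a1 (adjusted p = 0.0537), K01721mRNA_s_at (0.0549) and M11251cds_f_at (0.0824) did not. No member passed as lower under any alternative. Log2 fold changes turned sign only where no call was made. Cyp2a2 was at 0.0074 with the actin ratio and ran from -0.092 to 0.0279 without 1 array, and Cyp2a3 ran from -0.545 to 0.00904. Cyp2b15 was at -0.0285 with the actin ratio. The causes were not tested. J02669_s_at passed among the brightest 30% (adjusted p = 0.0454).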
